A study of Mus musculus with 20 samples.

Results

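Claudins are the membrane-spanning proteins that form the strands of tight junctions, and Epcam encodes EpCAM, an adhesion molecule of epithelial surfaces. The 10 genes described here are Cldn1, Cldn3, Cldn4, Cldn6, Cldn7, Cldn8, Cldn10, Cldn12, Cldn18 and Epcam, taken by symbol from a table of 51810 mouse genes. All 10 were present, and all 10 were among the 28932 genes that passed the filter on low counts. Another 24 claudins stood in the same table, of which 14 passed that filter, and serve as a comparison below.

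Medullary thymic epithelial cells (mTEC) show self-antigens to developing T cells. Tight junction proteins seal the space between neighbouring epithelial cells, and the mixture of claudins in the strand sets which ions and solutes can pass. In the thymic medulla claudin-3 and claudin-4 are known as surface marks of the mTEC lineage that gives rise to Aire-expressing cells, and EpCAM is the usual handle for isolating thymic epithelium. EpCAM also binds claudin-7 and shields it from degradation.

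RNA was sequenced from 12 libraries in 4 groups of 3, namely Trp53-cHyper mTEChi, Trp53-WT mTEChi, Trp53-cHyper mTEClo and Trp53-WT mTEClo, called cHyper and WT below. The mice were 4 to 5 weeks old, and 75000 mTEC were sorted per sample after a bead enrichment with an antibody against EpCAM, so every group was selected on the product of 1 of the 10 genes. The sources used here do not give what cHyper stands for, the mouse strain, any Cre driver or the gates of the sort; by convention mTEChi carry more surface MHC class II or CD80 than mTEClo. The labels do not state whether replicates came from separate mice. The p-values below therefore cover only the variation among the libraries, part of which may be technical. In bulk RNA a smaller share of cells that express a gene and less RNA per cell cannot be told apart.

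Library totals were 42.1 to 47.9 M fragments in replicates 1 and 2 and 22.02 to 25.3 M in replicate 3. Replicate 3 also differed from the others in sex-linked transcripts and in having 1 run in place of 2, in the same way in all 4 groups. The Y-linked gene Ddx3y had 0 fragments in replicate 3 and 2745 to 3755 in replicates 1 and 2. Replicate 3 thus came from other mice than replicates 1 and 2. The labelled cell types differed in their defining markers: Aire averaged 1645 CPM (fragment counts scaled to a common library size) in cHyper mTEChi and 44.5 CPM in cHyper mTEClo, and 1920 CPM in WT mTEChi against 14.3 CPM in WT mTEClo. Levels below are CPM on the scale of edgeR's TMM factors when 1 gene is followed across groups, and the authors' TPM (transcripts scaled by gene length and library size) when genes are compared with each other.

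Claudin composition was first described per length. The summed TPM of all claudins was 947 ± 20.9 in cHyper mTEChi and 973 ± 57.4 in WT mTEChi, against 245 ± 28.7 in cHyper mTEClo and 218 ± 10.2 in WT mTEClo (SD, n = 3 each). Cldn4 was the most abundant claudin of mTEChi, with 366 ± 3.32 TPM in cHyper and 331 ± 32.1 TPM in WT, followed by Cldn7, by Cldn13, which is not among the 10 genes, and by Cldn3. Cldn1 was the most abundant claudin of mTEClo, with 106 ± 8.30 TPM in cHyper and 59.7 ± 12.7 TPM in WT, followed by Cldn4. Epcam exceeded each of the 9 claudins in every group, at 508 ± 69.1 TPM in cHyper mTEChi, 522 ± 44.1 TPM in WT mTEChi, 523 ± 76.1 TPM in cHyper mTEClo and 540 ± 31.3 TPM in WT mTEClo.

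The share of each claudin in the summed claudin TPM of a library also differed between the cell types. Cldn1 made up 4.46% ± 0.0735 of it in cHyper mTEChi and 2.62% ± 0.888 in WT mTEChi, against 43.6% ± 6.67 in cHyper mTEClo and 27.4% ± 5.25 in WT mTEClo. Cldn4 made up 38.7% ± 0.594 and 33.9% ± 1.8 in cHyper and WT mTEChi, against 15.2% ± 3.08 and 16.7% ± 2.29 in cHyper and WT mTEClo. Cldn7 held 21.0% ± 0.520 and 22.3% ± 1.13 of the sum in cHyper and WT mTEChi, against 7.93% ± 0.791 and 10.4% ± 1.91 in cHyper and WT mTEClo. The lowest Cldn1 share of a cHyper mTEClo library was 35.9% and the highest of a WT mTEClo library 32.3%, so the groups did not overlap; no test was run on the shares. Cldn6, Cldn10 and Cldn18 were minor components, with a highest mean share of 1.21%, for Cldn6 in WT mTEClo.

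**Figure D1:**
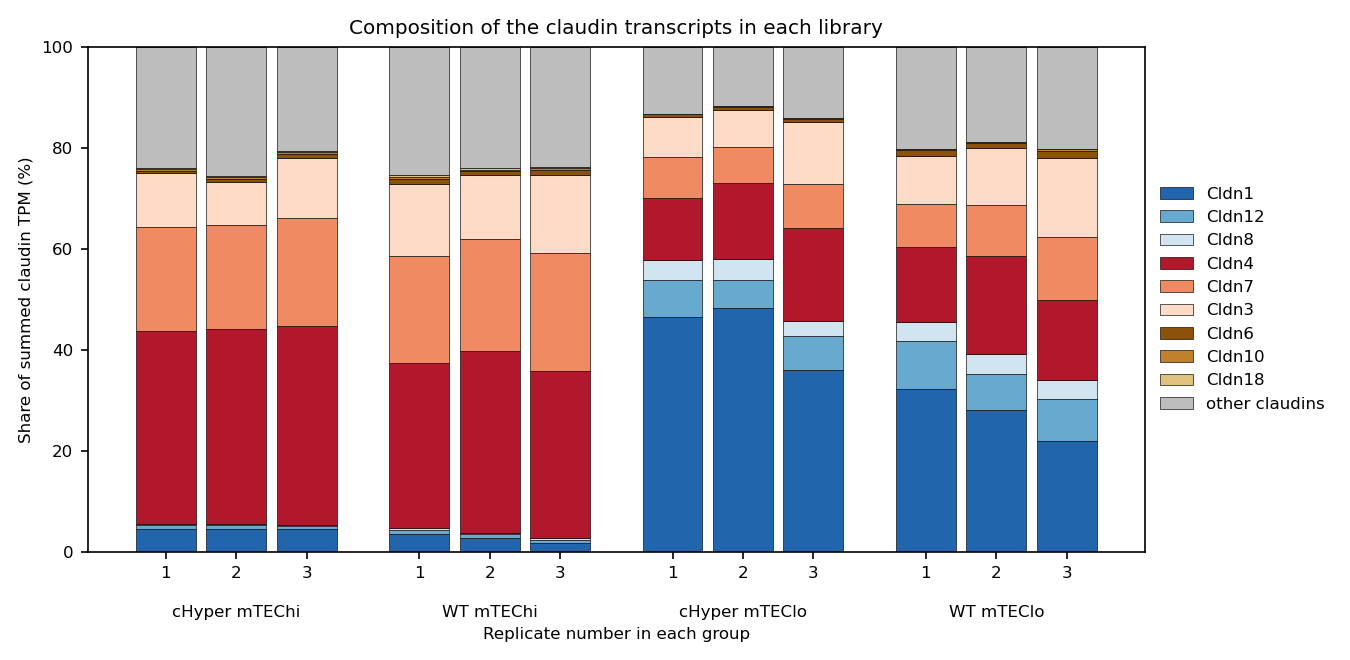
Share (%) of each claudin in the summed deposited claudin TPM, for every library, with replicates 1 to 3 side by side in each of the 4 groups and the 24 claudins outside the named 9 in grey. Cldn1 (dark blue) takes 35.9 to 48.3% in cHyper mTEClo and 21.8 to 32.3% in WT mTEClo, while Cldn4 and Cldn7 (red and orange) lead in both mTEChi groups.

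The next comparison set mTEChi against mTEClo within each genotype. In cHyper, 6 of the 10 genes rose and 3 fell (edgeR adjusted p under 0.05), where 38.7% of all genes tested rose and 25.8% fell. In WT, 6 rose and 3 fell, beside 40.2% and 29.4% of all genes. Cldn3, Cldn4, Cldn6, Cldn7, Cldn10 and Cldn18 were higher and Cldn1, Cldn8 and Cldn12 lower in mTEChi in both genotypes, and Epcam was called in neither. The median log2 fold change of the 10 genes was 2.02 in cHyper and 1.79 in WT, against 0.13 in cHyper and 0.12 in WT over all genes tested, and the WT median was also 1.79 with Cldn18 set at its lower bound. The all-gene median moved to 0.18 in cHyper and 0.22 in WT with DESeq2's size factors and to 0.30 in cHyper and 0.34 in WT with library totals, so the changes are to be read against that shift.

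Cldn4 and Cldn7 were the most abundant of the 9 claudins in mTEChi and were higher there than in mTEClo. Cldn4, a claudin that lowers sodium passage in renal epithelium, had 274, 297 and 298 CPM in cHyper mTEChi, against 25.7, 28.7 and 42.5 CPM in cHyper mTEClo. In WT it had 207, 270 and 261 CPM in mTEChi, against 27.7, 34.3 and 30.5 CPM in mTEClo. Every mTEChi library lay above every mTEClo library of its genotype, with log2 fold changes of 3.17 (SE 0.173, edgeR adjusted p = 1.40e-09) in cHyper and 3.0 (SE 0.172, edgeR adjusted p = 1.39e-09) in WT. Cldn7 (chromosome 11, 69964779 to 69967885), the claudin that binds EpCAM, had 161, 170 and 176 CPM in cHyper mTEChi, against 18.2, 14.5 and 21.5 CPM in cHyper mTEClo. In WT it had 144, 179 and 198 CPM in mTEChi, against 17.1, 19.3 and 25.5 CPM in mTEClo. The folds were 9.38 in cHyper and 8.47 in WT, again with no overlap (edgeR adjusted p = 1.29e-09 and 1.15e-09).

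The promoter of Cldn4 is shown beside that of Cldn1, since these were the leading claudins of mTEChi and of mTEClo. Each window runs from 250 bases before to 50 after the start site in RefSeq, build GRCm38.p6, chr5:134946885-134947184 on the minus strand for Cldn4 and chr16:26371790-26372089 on the minus strand for Cldn1. Capitals mark matches to TGANTCA, the AP-1 motif, on either strand.
Cldn4: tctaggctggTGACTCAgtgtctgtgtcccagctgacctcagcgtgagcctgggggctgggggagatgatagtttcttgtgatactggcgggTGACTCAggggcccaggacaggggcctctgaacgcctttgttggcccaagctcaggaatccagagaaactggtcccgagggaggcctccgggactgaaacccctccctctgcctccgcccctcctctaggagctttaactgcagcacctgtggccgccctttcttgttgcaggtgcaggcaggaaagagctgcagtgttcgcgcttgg
Cldn1: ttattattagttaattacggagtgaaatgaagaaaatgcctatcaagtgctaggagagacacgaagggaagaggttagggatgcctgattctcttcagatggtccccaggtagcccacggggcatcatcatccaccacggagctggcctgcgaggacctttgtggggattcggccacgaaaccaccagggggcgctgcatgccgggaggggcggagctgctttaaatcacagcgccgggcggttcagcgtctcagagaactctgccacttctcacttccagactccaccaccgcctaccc
RefSeq windows were found for 9 of the 10 genes, 14 windows in all, without Cldn8. The Cldn4 window held 2 matches to TGANTCA and the other 13 held none; 7.81% of the 32851 mouse windows held at least 1. No window of the 9 genes held AACCNGTT, the grainyhead-like motif found in 2.09% of all windows, or TATAAA, found in 13.6%. The motifs do not overlap each other here, and a match or its absence describes only these letters in these windows.

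Cldn3 (chromosome 5, 134986214 to 134987472, plus strand) lies 39.3 kb from Cldn4 (134945119 to 134946934, minus strand) on mm10. It had 52.7, 45.5 and 62.1 CPM in cHyper mTEChi, against 11.8, 9.63 and 19.8 CPM in cHyper mTEClo, and 63.5, 65.9 and 84.4 CPM in WT mTEChi, against 12.1, 13.9 and 20.8 CPM in WT mTEClo. The rise was 3.92-fold in cHyper and 4.6-fold in WT (edgeR adjusted p = 6.85e-06 and 1.87e-06). Cldn13, a rodent claudin 29.6 kb from Cldn4 on its other side and not among the 10 genes, averaged 78.7 ± 11.8 CPM in cHyper mTEChi and 74.5 ± 6.39 CPM in WT mTEChi, against 1.81 ± 0.568 CPM in cHyper mTEClo and 0.704 ± 0.403 CPM in WT mTEClo. All 3 neighbours were thus higher in mTEChi. Cldn3 overlaps the antisense gene Wbscr25 at its end, and since the strand setting of the counting is not given, fragments of the overlap could have been counted for neither or either gene.

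Cldn18, a claudin of stomach and lung epithelium, was the gene closest to absent in mTEClo. It had 5.44, 4.68 and 3.58 CPM in cHyper mTEChi, from 538 fragments, against 0.0228, 0.023 and 0.204 CPM in cHyper mTEClo, from 7 fragments. WT mTEChi had 5.67, 5.67 and 7.04 CPM, from 724 fragments, and no fragment was counted in the 3 WT mTEClo libraries. Cldn18 passed the filter on low counts only through mTEChi, so the direction of its change was largely set by that filter. Against a floor of 3 fragments over the WT mTEClo group the level in WT mTEChi was at least 213-fold higher (edgeR adjusted p = 3.45e-08), and in cHyper the rise was 67.9-fold (edgeR adjusted p = 1.97e-07). Of the 7 fragments in cHyper mTEClo 5 came from replicate 3, and the ratio of mTEChi to mTEClo in cHyper was 221 in replicates 1 and 2 and 17.6 in replicate 3. Cldn18 overlaps the antisense gene Gm16004, with the same limit on strand.

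Cldn10 and Cldn6 rose from low levels in mTEClo. Cldn10, whose protein forms paracellular ion channels in kidney, averaged 3.35 ± 0.638 CPM in cHyper mTEChi, against 0.349 ± 0.234 CPM in cHyper mTEClo, and 3.64 ± 0.686 CPM in WT mTEChi, against 0.781 ± 0.184 CPM in WT mTEClo. The log2 fold change was 3.38 (SE 0.376) in cHyper and 2.24 (SE 0.338) in WT (edgeR adjusted p = 1.86e-06 and 3.38e-05). The cHyper fold was 16.8 in replicates 1 and 2 and 4.44 in replicate 3. Cldn10 overlaps an rRNA gene on the opposite strand, n-R5s51, with the same limit on strand. Cldn6 (chromosome 17, 23679249 to 23682446), a claudin of embryonic epithelia, averaged 4.74 ± 1.40 CPM in cHyper mTEChi, against 1.14 ± 0.201 CPM in cHyper mTEClo, and 5.52 ± 0.816 CPM in WT mTEChi, against 2.14 ± 0.444 CPM in WT mTEClo. It rose 4.17-fold in cHyper and 2.60-fold in WT (edgeR adjusted p = 7.25e-06 and 0.000169), and for both genes no mTEChi library reached down to a mTEClo library of its genotype. No stretch of 50 bases in the annotated transcripts of any of the 10 genes was found, on either strand, in a transcript of another gene. Any overlap of exons with the antisense and rRNA genes named above was thus shorter than 50 bases in the annotation searched.

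Cldn1, Cldn8 and Cldn12 went the other way. Cldn1 (chromosome 16, 26356642 to 26371841), required for the barrier of mouse epidermis, had 86.2, 92.7 and 88.6 CPM in cHyper mTEChi, against 262, 245 and 222 CPM in cHyper mTEClo. In WT it had 58.4, 54.6 and 35.4 CPM in mTEChi, against 160, 133 and 112 CPM in mTEClo. The fall was 2.72-fold in both genotypes, a log2 fold change of -1.45 (SE 0.165, edgeR adjusted p = 2.49e-06) in cHyper and -1.44 (SE 0.166, edgeR adjusted p = 2.17e-06) in WT. Cldn8, a claudin of the distal nephron, fell by 2.12 in cHyper and by 2.06 in WT on the log2 scale, averaging 2.31 ± 0.304 CPM in cHyper mTEChi and 2.18 ± 0.381 CPM in WT mTEChi, against 10.1 ± 0.828 CPM in cHyper mTEClo and 9.08 ± 0.167 CPM in WT mTEClo. Cldn12, an atypical claudin present in many epithelia, averaged 12.7 ± 0.702 CPM in cHyper mTEChi and 13.4 ± 0.738 CPM in WT mTEChi, against 32.5 ± 6.46 CPM in cHyper mTEClo and 36.2 ± 5.78 CPM in WT mTEClo. Its log2 fold changes were -1.36 (SE 0.154) in cHyper and -1.43 (SE 0.154) in WT (edgeR adjusted p = 2.36e-06 and 1.05e-06).

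Epcam (chromosome 17, 87635979 to 87651129) varied least of the 10. It had 501, 528 and 426 CPM in cHyper mTEChi, against 623, 549 and 460 CPM in cHyper mTEClo, and 414, 518 and 476 CPM in WT mTEChi, against 526, 597 and 542 CPM in WT mTEClo. The log2 fold change was -0.17 (95% interval -0.45 to 0.11, edgeR adjusted p = 0.278) in cHyper and -0.24 (95% interval -0.52 to 0.037, edgeR adjusted p = 0.111) in WT. The WT value passed the threshold without replicate 3 (edgeR adjusted p = 0.0429), without cHyper mTEClo replicate 3 (0.0406) and without WT mTEChi replicate 2 (0.0466), and the log2 ratio of the WT means was -0.03 when library totals set the scale. The cells of all 4 groups had been enriched on EpCAM protein.

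**Figure D2:**
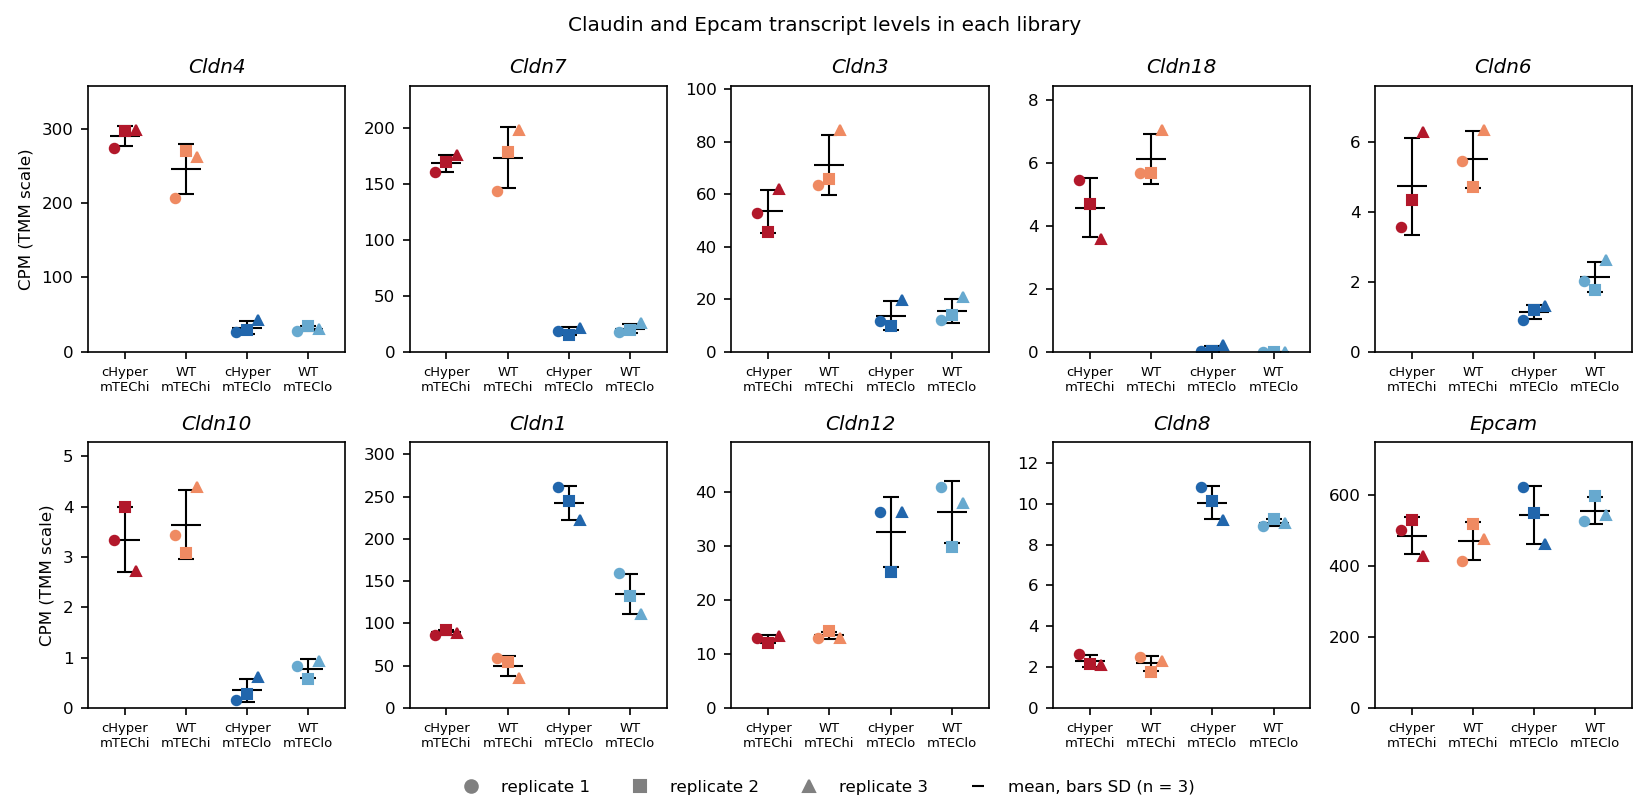
Level of each of the 10 genes in CPM on the TMM scale, 1 point per library (marker shape gives the replicate number), with the mean and SD of the 3 libraries of each group; each panel has its own linear axis from 0. The first 6 panels are high in mTEChi, and Cldn1, Cldn12 and Cldn8 are high in mTEClo. Epcam overlaps between cHyper mTEChi and cHyper mTEClo, while every WT mTEChi library lies below every WT mTEClo library.

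Transcripts of other cell types also differed between mTEChi and mTEClo. The summed CPM of 7 myeloid and dendritic genes was 489 to 547 in cHyper mTEChi and 497 to 667 in WT mTEChi, against 27.9 to 45.8 in cHyper mTEClo and 28.4 to 32.5 in WT mTEClo, and all 7 were called higher in both genotypes. Of 5 endothelial genes the 4 tested were higher in mTEChi of both genotypes, with sums of 18.4 to 19.8 CPM in cHyper mTEChi and 23.9 to 27.4 CPM in WT mTEChi, against 5.98 to 6.60 CPM in cHyper mTEClo and 8.24 to 9.90 CPM in WT mTEClo. The 4 B cell genes, all higher, summed to 15.1 to 19.1 CPM in cHyper mTEChi and 20.4 to 22.9 CPM in WT mTEChi, against 0.529 to 1.38 CPM in cHyper mTEClo and 0.469 to 1.28 CPM in WT mTEClo. Of 9 thymocyte genes 4 rose in cHyper and 8 in WT, with sums of 71.6 to 88.6 CPM in cHyper mTEChi and 63.6 to 74.7 CPM in WT mTEChi, against 20.8 to 43.0 CPM in cHyper mTEClo and 11.3 to 27.6 CPM in WT mTEClo. Sums of these 4 lists were higher in every mTEChi library than in any mTEClo library. Of the B cell and myeloid lists, Ms4a1, Cd22, Itgax, Adgre1 and Flt3 averaged at most 0.217 CPM in either mTEClo group. They passed the filter on low counts only through mTEChi, so the direction of their change was largely set by that filter. Tuft mTEC genes went the other way, as Cldn1, Cldn8 and Cldn12 did, with sums of 136 to 184 CPM in cHyper mTEChi and 133 to 171 CPM in WT mTEChi, against 390 to 555 CPM in cHyper mTEClo and 610 to 811 CPM in WT mTEClo, and 4 of 5 fell in cHyper and 5 of 5 in WT. Genes of enterocyte- and hepatocyte-like mTEC summed to 343 to 396 CPM in cHyper mTEChi and 353 to 540 CPM in WT mTEChi, against 9.70 to 19.2 CPM in cHyper mTEClo and 16.7 to 27.0 CPM in WT mTEClo, and all 5 rose in both genotypes. No marker gene of these lists was at 0 in a whole group, and the part of such cells in the claudin differences was not tested.

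The other claudins mostly moved as Cldn4 did. Of 14 tested, 10 rose and 1 fell in cHyper, where 38.7% of all genes tested rose and 25.8% fell. In WT 10 rose and 3 fell, beside 40.2% and 29.4% of all genes. Cldn14, Cldn16, Cldn19 and Cldn34b2 had at most 6 fragments in either mTEClo group, and Cldn20 had 6 in cHyper and 20 in WT mTEClo. All of these passed the filter on low counts only through mTEChi. The direction of their change was thus largely set by that filter, which limits what the counts show. The median log2 fold changes were 2.86 in cHyper and 2.48 in WT. With genes at 0 fragments in mTEClo set at their bounds the medians were 2.56 and 2.48. Cldn13 and Cldn23 had the smallest adjusted p in both genotypes, and Cldn19, next in both, had 517 fragments in WT mTEChi and 0 in WT mTEClo. Cldn5, the principal claudin of endothelium, averaged 1.41 ± 0.298 CPM in cHyper mTEChi, against 0.207 ± 0.142 CPM in cHyper mTEClo, and 1.99 ± 1.0 CPM in WT mTEChi, against 0.327 ± 0.231 CPM in WT mTEClo. Its mTEClo values rested on only 24 fragments in cHyper and 40 in WT.

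Claudin partners in the tight junction showed calls in both directions. Of 23 partner genes 14 rose and 5 fell in cHyper mTEChi against cHyper mTEClo, and 15 rose and 7 fell in the WT comparison (median log2 0.55 and 0.61). Over all genes tested 38.7% rose and 25.8% fell in cHyper, and 40.2% rose and 29.4% fell in WT. Ocln, which encodes the strand protein occludin, rose 5.46-fold in cHyper (edgeR adjusted p = 7.49e-10) and 5.86-fold in WT (3.42e-10), and Marveld2, which encodes tricellulin of tricellular contacts, rose 6.41-fold and 6.08-fold. Tjp3, the gene of the scaffold ZO-3 that binds claudin tails, rose 6.45-fold in cHyper and 8.01-fold in WT, whereas Tjp1, the gene of ZO-1, was called in neither. Mpdz, the gene of the scaffold MUPP1, fell 3.42-fold in cHyper and 3.77-fold in WT.

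Adherens junction and desmosome genes were mostly lower in mTEChi. Of 17, 2 rose and 12 fell in cHyper, and 2 rose and 14 fell in WT, with median log2 fold changes of -0.61 and -0.73. The shares over all genes tested were 38.7% higher and 25.8% lower in cHyper, and 40.2% and 29.4% in WT. Cdh3, the gene of P-cadherin, averaged 48.8 ± 5.57 CPM in cHyper mTEChi, against 327 ± 33.2 CPM in cHyper mTEClo, and 41.6 ± 1.12 CPM in WT mTEChi, against 412 ± 45.4 CPM in WT mTEClo. Cdh1, the gene of E-cadherin, averaged 562 ± 45.3 CPM in cHyper mTEChi, against 1205 ± 62.1 CPM in cHyper mTEClo, and 490 ± 5.53 CPM in WT mTEChi, against 1147 ± 33.8 CPM in WT mTEClo. Perp, a desmosome gene and known Trp53 target, fell by 1.40 on the log2 scale in cHyper and by 1.87 in WT.

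**Figure D3:**
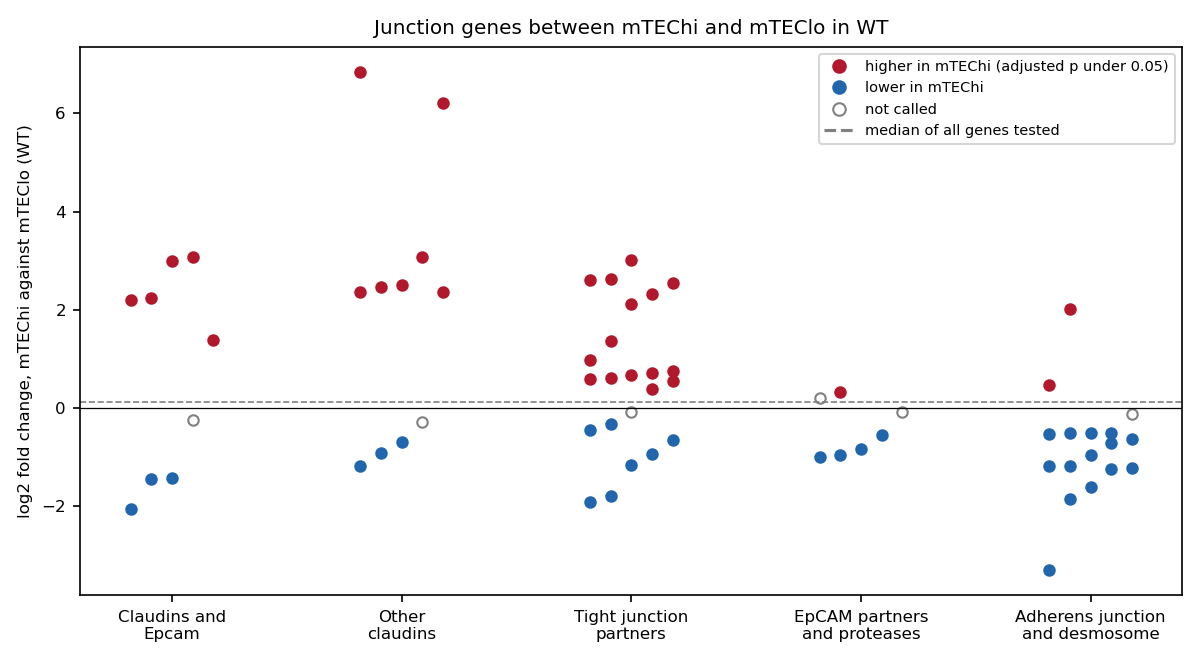
Log2 fold change of WT mTEChi over WT mTEClo from edgeR for the 10 genes, the other claudins, tight junction partners, EpCAM partners and adherens junction and desmosome genes, 1 point per gene, with filled points called and the dashed line at the median of all genes tested (0.12). Cldn18, Cldn16, Cldn19 and Cldn34b2, at 0 fragments in WT mTEClo, are left out; the last list lies mostly below 0.

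The genes that act on EpCAM were called in both directions. St14 encodes matriptase, the protease that cleaves EpCAM, and Spint1 and Spint2 encode its inhibitors HAI-1 and HAI-2. St14 averaged 199 ± 4.88 CPM in cHyper mTEChi, against 158 ± 16.9 CPM in cHyper mTEClo, and 148 ± 8.91 CPM in WT mTEChi, against 119 ± 11.9 CPM in WT mTEClo. Spint1 averaged 202 ± 5.36 CPM in cHyper mTEChi, against 314 ± 21.4 CPM in cHyper mTEClo, and 154 ± 7.08 CPM in WT mTEChi, against 310 ± 23.2 CPM in WT mTEClo. Spint2 fell by 0.64 in cHyper and by 0.97 in WT on the log2 scale, and St14 rose 1.26-fold and 1.24-fold (edgeR adjusted p = 0.0105 and 0.014). Of the 7 genes of this list 3 rose and 3 fell in cHyper, and 1 rose and 4 fell in WT. These counts stand beside 38.7% higher and 25.8% lower over all genes tested in cHyper, and 40.2% and 29.4% in WT.

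Of 21 epithelial transcription factors and their repressors, 13 rose and 6 fell in cHyper and 12 rose and 7 fell in WT (median log2 0.68 and 0.43). Over all genes tested the shares were 38.7% higher and 25.8% lower in cHyper, and 40.2% and 29.4% in WT. Ovol1, the gene of an epithelial repressor of mesenchymal genes, rose 9.05-fold in cHyper and 10.9-fold in WT, and Hnf4g, the gene of an intestinal nuclear receptor, rose 9.20-fold and 8.39-fold. Trp63, the gene of the basal epithelial factor p63, fell 4.68-fold in cHyper and 5.74-fold in WT. Nkx2-1 and Snai1 of this list averaged at most 0.0983 CPM in either mTEClo group and passed the filter on low counts only through mTEChi. The direction of any change of these genes was largely set by that filter.

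The cHyper genotype was then compared with WT in mTEClo. Of the 10 genes 1 rose (Cldn1), where 4.53% of all genes tested rose, and 1 fell (Cldn6), where 4.64% fell; 8 did not pass the test. At an unadjusted p under 0.05 there were 4, and the median log2 fold change of the 10 was -0.093, against 0.0015 over all genes. Cldn1 had 262, 245 and 222 CPM in cHyper mTEClo, against 160, 133 and 112 CPM in WT mTEClo. The lowest cHyper library lay above the highest WT library, and the rise was 1.8-fold (log2 0.85, SE 0.163, edgeR adjusted p = 0.00411). It was 1.73-fold in replicates 1 and 2 and 1.99-fold in replicate 3, and the call held without each library in turn (edgeR adjusted p at most 0.0236).

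Cldn6 had 0.914, 1.2 and 1.30 CPM in cHyper mTEClo, from 40, 52 and 32 fragments, against 2.03, 1.76 and 2.63 CPM in WT mTEClo, from 86, 76 and 56 fragments. The groups did not overlap, and the level was 1.87-fold lower (log2 -0.90, SE 0.267), just past the threshold (edgeR adjusted p = 0.0484). The call ended in limma-voom (adjusted p = 0.107), with only the 2 groups compared in the edgeR fit (adjusted p = 0.0855) and without replicate 3 (adjusted p = 0.0808). It also ended without each of cHyper mTEClo replicates 1, 2 and 3, WT mTEClo replicates 1 and 3, all 3 WT mTEChi replicates and cHyper mTEChi replicate 2 (edgeR adjusted p = 0.0517 to 0.148), with log2 fold changes of -1.04 to -0.77 over all left-out libraries. The ratio was 0.557 in replicates 1 and 2 and 0.496 in replicate 3. Cldn9, whose gene ends 138 bases from the end of Cldn6 on the opposite strand, averaged 7.12 ± 3.06 CPM in cHyper mTEClo and 16 ± 3.32 CPM in WT mTEClo, a 2.26-fold fall (edgeR adjusted p = 0.00873).

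Cldn10 and Cldn18 stood at the other low levels. Cldn10 had 7, 12 and 15 fragments in cHyper mTEClo, or 0.160, 0.276 and 0.611 CPM, against 35, 25 and 20 fragments, or 0.827, 0.579 and 0.938 CPM, in WT mTEClo. The groups overlapped and the log2 difference of -1.25 (SE 0.408) missed the threshold (edgeR adjusted p = 0.0718). It passed with DESeq2 (0.0173), with no filter (0.0396), without replicate 3 (0.0305) and without cHyper mTEClo replicate 3 (0.0109). Cldn18 had 1, 1 and 5 fragments in cHyper mTEClo and none in WT mTEClo, at least 2.23-fold higher against the floor of 3 fragments over the group, and was not called (edgeR adjusted p = 0.105); DESeq2 called it (adjusted p = 0.0471).

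The abundant claudins of mTEChi were not called between genotypes in mTEClo. The 95% intervals of the log2 fold change were -0.29 to 0.41 for Cldn4, -0.54 to 0.17 for Cldn7 and -0.71 to 0.34 for Cldn3, with overlapping libraries in each case. Cldn8 (-0.20 to 0.50) and Cldn12 (-0.48 to 0.16) did not pass either, nor did Epcam (-0.31 to 0.25). Of the other 14 claudins tested 2 rose and 1 fell, beside 4.53% and 4.64% of all genes tested. Cldn2, a pore-forming claudin, averaged 7.53 ± 2.53 CPM in cHyper mTEClo and 3.04 ± 1.5 CPM in WT mTEClo, and Cldn13 is given above. Of those 14, Cldn16 and Cldn34b2 had no fragment in either mTEClo group.

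Among partners in mTEClo, 2 of 23 tight junction genes rose and 4 fell. The list counts given here stand beside 4.53% of all genes tested that rose and 4.64% that fell. Cgnl1, the gene of paracingulin, rose 1.66-fold, whereas Cgn, the gene of its paralog cingulin, fell by 0.77 and Jam3, a junctional adhesion molecule gene, by 1.99 on the log2 scale. Among genes of the EpCAM list, St14 rose and Tspan8 fell. Of the 17 adherens and desmosome genes 1 rose (Pkp2) and 2 fell (Nectin2 and Afdn). Of the 21 transcription factors none rose and 2 fell (Klf4 and Grhl3). Fibroblast genes summed to 69.4 to 115 CPM in cHyper mTEClo and 31.9 to 36.3 CPM in WT mTEClo, with 2 of 5 higher and 1 lower, and tuft cell genes summed to 390 to 555 CPM in cHyper mTEClo and 610 to 811 CPM in WT mTEClo, with 3 of 5 lower. Genes of cortical thymic epithelium summed to 355 to 486 CPM in cHyper mTEClo and 280 to 350.0 CPM in WT mTEClo, with 1 of 6 higher. Of 6 lung and secretory mTEC genes 1 rose (Bpifa1, 4.14-fold). Of 5 enterocyte- and hepatocyte-like mTEC genes 1 fell (Vil1, 3.23-fold). Of 6 keratinocyte-like mTEC genes 1 fell (Krtdap, 3.55-fold), and of 7 myeloid and dendritic genes 1 fell (C1qb, 2.50-fold). Of 11 mTEC genes 2 rose and 1 fell in cHyper mTEClo. Aire rose 3.12-fold (edgeR adjusted p = 2.39e-05) and Ciita 1.42-fold (0.0103), while Cd80 fell 2.04-fold (0.0055). Thymocyte genes summed to 20.8 to 43.0 CPM in cHyper mTEClo and 11.3 to 27.6 CPM in WT mTEClo, with overlap. None of the 9 was called, with 4 at an unadjusted p under 0.05 in edgeR and a median log2 fold change of 1.25. No gene of these lists was at 0 in a whole group, and the part of these cells in the Cldn1 and Cldn6 differences was not tested.

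In mTEChi 1 of the 10 genes rose in cHyper against WT, again Cldn1, beside 1.56% of all genes tested, and 0 fell, beside 0.418%. Cldn1 was also the 1 gene of the 10 with an unadjusted p under 0.05 in edgeR, and DESeq2 and limma-voom each called 1. It had 86.2, 92.7 and 88.6 CPM in cHyper mTEChi, against 58.4, 54.6 and 35.4 CPM in WT mTEChi, with no overlap. The rise was 1.8-fold (log2 0.85, SE 0.164, edgeR adjusted p = 0.0132), 1.58-fold in replicates 1 and 2 and 2.50-fold in replicate 3. The call ended without cHyper mTEChi replicate 2 (edgeR adjusted p = 0.059, log2 0.82) and stood at the threshold without cHyper mTEChi replicate 3 (edgeR adjusted p = 0.05); it held in 12 of the 13 fits that left out libraries. The split of all calls was 451 higher and 121 lower, against 352 and 181 with DESeq2's size factors and 335 and 184 with library totals. It was 942 and 309 with the replicate number as a block, 510 and 352 with limma-voom, 587 and 539 with only the groups compared in the edgeR fit and 715 and 740 with DESeq2. Cldn1 passed under each of these. Of 11 mTEC genes, Epcam among them, 3 rose in cHyper mTEChi (Krt5, Krt14 and Ccl21a) and none fell. Krt14, a keratin gene of basal epithelium, averaged 543 ± 55.7 CPM in cHyper mTEChi and 241 ± 17.8 CPM in WT mTEChi, and all 3 were called lower in mTEChi than in mTEClo of each genotype, as Cldn1 was. Keratinocyte-like mTEC genes summed to 283 to 325 CPM in cHyper mTEChi and 187 to 282 CPM in WT mTEChi, with none of 6 called, and endothelial genes to 18.4 to 19.8 CPM in cHyper mTEChi and 23.9 to 27.4 CPM in WT mTEChi, with none of 4 called. Lung and secretory mTEC genes summed to 338 to 366 CPM in cHyper mTEChi and 243 to 282 CPM in WT mTEChi, with 1 of 6 higher, the airway gene Bpifa1, at 199 ± 12.2 CPM in cHyper mTEChi and 88.2 ± 11.5 CPM in WT mTEChi. Of 5 tuft genes Pou2f3 was higher, with overlapping sums of 136 to 184 CPM in cHyper mTEChi and 133 to 171 CPM in WT mTEChi, and of 7 myeloid and dendritic genes Adgre1 was lower, with the overlapping sums given above. The part of these cells in the Cldn1 difference was not tested.

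In mTEChi the libraries of the genotypes did not overlap for 2 of the 10 genes that were higher in cHyper, Cldn1 and Cldn4, beside 12.4% of all genes tested, and for 2 that were lower, Cldn3 and Cldn18, beside 13.3%. Cldn4, Cldn3 and Cldn18 were not called. Cldn4 averaged 290 ± 13.6 CPM in cHyper and 246 ± 33.8 CPM in WT (log2 0.24, edgeR adjusted p = 0.512), Cldn3 53.4 ± 8.30 and 71.3 ± 11.5 CPM in cHyper and WT (log2 -0.42, edgeR adjusted p = 0.431), and Cldn18 4.57 ± 0.938 and 6.12 ± 0.789 CPM in cHyper and WT (log2 -0.41, edgeR adjusted p = 0.545). The remaining 6 overlapped between the genotypes, with log2 fold changes of -0.23 for Cldn6 to 0.091 for Cldn8. None of the 14 other claudins was called in edgeR, and 0 had an unadjusted p under 0.05. Of the partner lists 1 tight junction gene rose (Cgnl1), 2 of the EpCAM list rose (Spint1 and St14), 2 of the adherens and desmosome list rose (Pkp3 and Perp), and none fell. Over all genes tested 1.56% rose and 0.418% fell. None of the transcription factors was called, with 8 of 21 at an unadjusted p under 0.05.

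The difference between the genotype effects of mTEChi and mTEClo was called in none of the 10 genes, beside 1.13% of all genes higher and 0.926% lower. By edgeR 2 had an unadjusted p under 0.05, Cldn10 (log2 difference 1.15, edgeR adjusted p = 0.316) and Cldn18 (edgeR adjusted p = 0.164). DESeq2 called 1, Cldn18 (adjusted p = 0.0476), and limma-voom 0. For Cldn1 the difference was -0.0025 on the log2 scale (95% interval -0.50 to 0.49), which does not show that the 2 effects are equal. Of the tight junction partners 3 had a higher genotype effect in mTEChi than in mTEClo, namely Cgn, Jam3 and Marveld3.

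**Figure D4:**
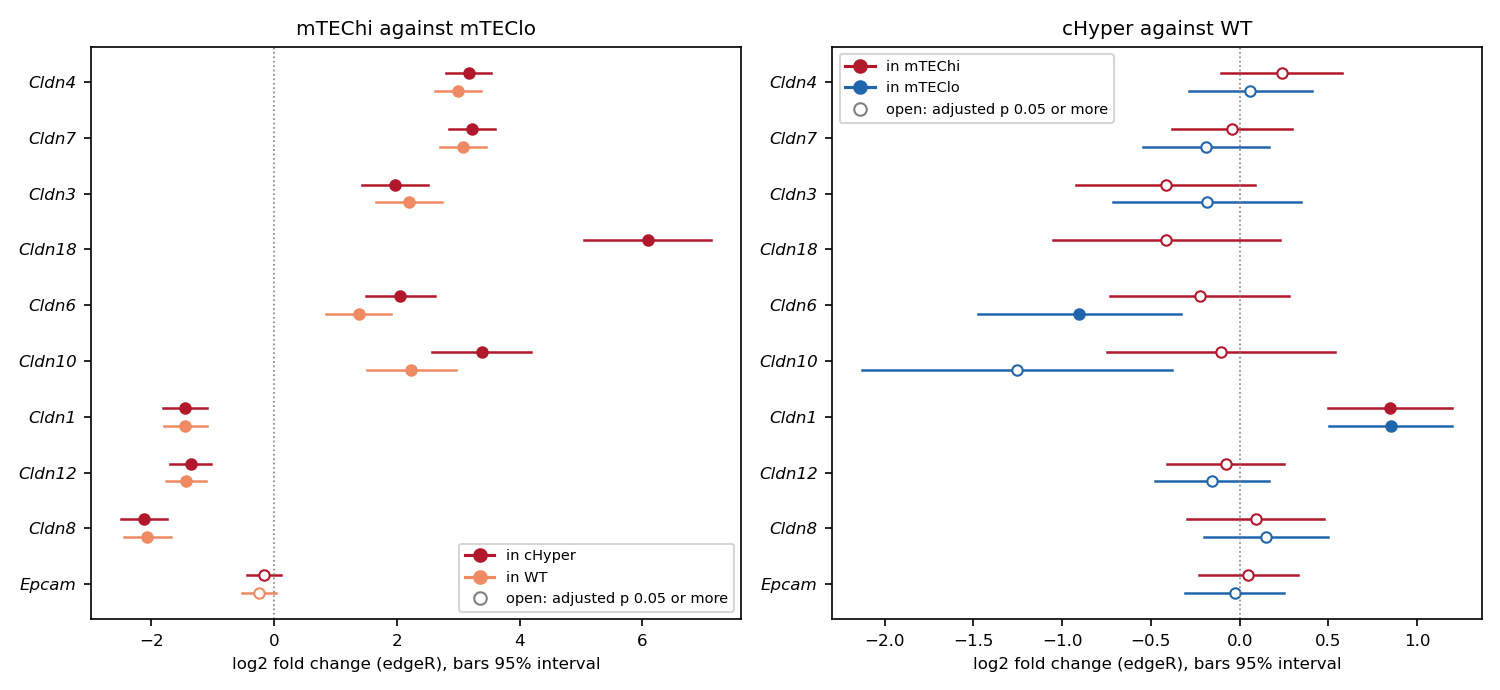
Log2 fold changes from edgeR with 95% intervals for the 10 genes, mTEChi over mTEClo on the left (cHyper above WT) and cHyper over WT on the right (mTEChi above mTEClo), with filled points called at an adjusted p under 0.05. Cldn18 is left out where WT mTEClo had 0 fragments; on the right Cldn1 in both cell types and Cldn6 in mTEClo are filled.

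Across the 12 libraries the patterns were compared as the root mean square difference of log2(CPM + 1), each gene centred on its own mean, over 20924 genes of at least 1 CPM on average. Among the 10 genes Cldn4 and Cldn7 were the closest pair (0.208), followed by Cldn6 and Cldn10 (0.275) and Cldn8 and Cldn12 (0.306). The nearest gene outside the 10 was Dennd2c for Cldn1 (0.0779), Ces2c for Cldn4 (0.109), AA467197 for Cldn7 (0.135) and Map6 for Cldn3 (0.155). For Cldn8 it was Sspn (0.123), for Cldn12 Spindoc (0.115), for Cldn10 AI507597 (0.118), for Cldn6 Abcc12 (0.153) and for Cldn18 Aqp8 (0.0753). Epcam was nearest to Ap3d1 (0.0923), beside its own standard deviation of only 0.178, so that many little-changing genes lay about as near. The added 1 compresses the differences of genes near 1 CPM, such as Cldn10 and Cldn18.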

How the data were processed

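The authors deposited fragment counts and TPM per gene, per the file headers, with 1 column for each of 12 libraries; the labels list 20 samples, since replicates 1 and 2 had 2 runs each that had been merged. The files are on mm10 and TopHat2 2.1.1, SAMtools 1.9, Subread 2.0.1 and featureCounts were used, per the submitters' processing notes; the sources used here give neither strand setting nor annotation release. The 10 genes have the same coordinates in GENCODE's annotation of that build.

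The main test was edgeR's quasi-likelihood F test (version 4.0.16, under R 4.3.3) on the counts, with TMM factors, filterByExpr by group and a single fit of the 4 group means to the 12 libraries (8 residual degrees of freedom), with Benjamini-Hochberg adjustment over all 28932 genes and a threshold of 0.05; the test was checked on simulated data. DESeq2 1.42.0 and limma 3.58.1 were alternatives. The genes named are the 10, up to 3 called members of each list with the smallest adjusted p, 2 others for their role, and the 3 nearest patterns, of which the nearest is given. The calls of the partner, other-claudin and marker lists in the genotype comparisons are named where they are few, and 1 gene of these lists is not reported here; these and Cldn5, Cldn9, Aire, Krt5, Krt14, Cdh1 and Tjp1 were chosen after their values were seen. Members and lists were chosen with earlier results of these data known.

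Same-numbered libraries deviated together in every pair between cHyper and WT mTEChi (correlations 0.136 to 0.206) and between cHyper mTEChi and cHyper mTEClo (0.104 to 0.125). Between WT mTEChi and WT mTEClo, and between cHyper and WT mTEClo, 1 pair each was under 0.1 (0.093 and 0.0972). Groups that share neither genotype nor cell type gave 0.104 to 0.201 (WT mTEChi with cHyper mTEClo) and 0.0612 to 0.136 (cHyper mTEChi with WT mTEClo). Since replicate 3 differed in the same way in all 4 groups, these correlations cannot show whether the numbers pair the libraries.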

Additional observations from a re-analysis of the deposited data

Results flagged for a closer look

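Cldn18 moved in opposite directions by genotype in the 2 cell types. Every cHyper mTEChi library (3.58 to 5.44 CPM) lay below every WT mTEChi library (5.67 to 7.04 CPM), and every cHyper mTEClo library (0.0228 to 0.204 CPM, 7 fragments in all) lay above the WT mTEClo libraries, which had 0 fragments. The difference between the 2 genotype effects was tested and was not called (edgeR adjusted p = 0.164); DESeq2 gave an adjusted p of 0.0476 and limma-voom 0.208. Neither genotype effect alone was called by edgeR, and 5 of the 7 fragments came from 1 library.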

How the results depend on the processing

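Of the values of single genes over the alternatives run, 1046 stayed on their side of the threshold, fold changes in the same direction or group ratios within the spread; 13 lost a call, 9 gained one, 3 group ratios moved by more than the spread and 44 changed sign, all 44 of them not called on either side. The calls between mTEChi and mTEClo of the 9 claudins held under every tool, scaling and filter and without each library. In mTEClo the count of the 10 genes called between genotypes, 2, was 4 with DESeq2, 1 with limma-voom, 1 with only the groups compared and 1 to 2 without single libraries. With no filter Cldn10 was called in addition to Cldn1 and Cldn6. In mTEChi the count, 1, was 0 to 1 without single libraries. For the difference between genotype effects the count, 0, was 1 with DESeq2. Over all genes the 572 mTEChi genotype calls became 1455 with DESeq2, 862 with limma-voom, 1126 with only the groups compared, 1251 with the replicate block and 296 to 678 without single libraries, lowest without cHyper mTEChi replicate 3. The 595 calls of the difference became 1103 with no filter, 1425 with DESeq2, 1186 with the replicate block and 282 to 629 in the leave-out fits, lowest without replicate 3. The replicate block changed no call of the 10 genes. The cause of these changes was not tested. Cldn6, Cldn10 and Cldn18 rested on few fragments in mTEClo, which limits the precision of their values there.

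The changes of sign were in log2 fold changes that were not called. For Epcam between genotypes in mTEChi (0.048) the value was -0.008744 with DESeq2's size factors, -0.01893 with library totals, -0.02177 with at least 1 CPM in 3 libraries and -0.008693 with DESeq2, and between mTEChi and mTEClo in cHyper it was 0.002286 with library totals. For the difference of genotype effects of Cldn1 it was 0.01212 with no filter, 0.00869 with limma-voom and 0.01457 with the replicate block. Without single libraries or replicate 3, the genotype values in mTEChi ran from -0.1685 to 0.06218 for Cldn7, -0.06963 to 0.1954 for Cldn8, -0.2513 to 0.1717 for Cldn10 and -0.04328 to 0.1446 for Epcam. In mTEClo they ran from -0.5411 to 0.04838 for Cldn3, -0.2059 to 0.1871 for Cldn4, -0.2932 to 0.003614 for Cldn12 and -0.1512 to 0.0663 for Epcam. The differences of genotype effects ran from -0.1785 to 0.1406 for Cldn1, -0.4694 to 0.12 for Cldn3, -0.01405 to 0.2916 for Cldn7, -0.2013 to 0.05933 for Cldn8, -0.07934 to 0.211 for Cldn12 and -0.02281 to 0.1947 for Epcam.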
